A study of Homo sapiens with 6 samples.

Results

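PTK2 and its relative PTK2B were followed through 6 RNA sequencing libraries of bladder cancer cells, as whole genes and as single annotated transcripts. All rows carrying the symbol PTK2 or PTK2B were taken, without regard to their values, which gave 49 transcripts of PTK2 and 10 of PTK2B, 59 of the 121915 transcripts that carry a gene name and 2 of 30717 genes. T24 and UMUC3 (UM-UC-3 in part of the labels) are established human lines grown from bladder carcinoma. Each line gave 1 control library and 2 libraries with knockdown of circPTK2, a circular RNA formed from exons of PTK2, and the study set the knockdown cells beside the control cells in each line. Knockdown 1 and knockdown 2 below are the reagents numbered 1 and 2 in the sample titles. In T24 the column names of the count table carry these numbers the other way round, so the T24 library called knockdown 1 here is the column numbered 2 there and the reverse; in UMUC3 titles and columns have the same numbers. The titles call the reagents si and the series text calls them sh, so their kind is not settled. The labels do not state whether the libraries of a line stem from different cultures. Each p below therefore reflects the variation among these 6 libraries alone, part or all of which may be technical. The tests treat the 2 knockdown libraries of a line, which have different reagent numbers, as replicates. Their spread therefore also holds any difference between the reagents.

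Focal adhesion kinase, the product of PTK2, is a cytoplasmic tyrosine kinase that gathers with integrins, talin and paxillin where cells grip the matrix. There it phosphorylates itself, binds SRC, and the pair phosphorylates adaptors such as BCAR1 and paxillin that feed into cell movement and survival signals. PTK2B encodes PYK2, the only close relative of focal adhesion kinase, which shares its domain layout, responds to calcium and is best known from neurons and blood cells. Both genes lie on chromosome 8 of GRCh38: PTK2 (ENSG00000169398) from 140657900 to 141002216 on the minus strand, and PTK2B (ENSG00000120899) from 27311482 to 27459391 on the plus strand.

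Each library held between 65111683 and 72362436 counts, and 14.9 to 16.1% of these lay on transcripts with no gene or position and were set aside. Any such transcript that belongs to the PTK2 locus is missing from the sums below. Of 12 listed markers of urothelial carcinoma lines 11 are in the table. EPCAM was at 0 in UMUC3 and CDH1 at 0 to 0.135 CPM in both lines, with KRT5, UPK1A and UPK2 under 0.5 CPM throughout. KRT8 stood at 1481 to 1691 CPM in T24 and 81.4 to 91 CPM in UMUC3, KRT18 at 389 to 835 and 84.3 to 95.9 CPM, KRT7 at 171 to 708 and 0.838 to 4.12 CPM, and KRT19 at 510.5 to 543 and 0.0537 to 0.263 CPM. GATA3 stood at 44.2 to 73.5 CPM in T24 and at 0.657 to 0.824 CPM in UMUC3, and VIM stood at 131 to 202 CPM in T24 and 3166 to 3270 CPM in UMUC3. The 3 blood cell markers in the table summed to 0.197 to 5.13 CPM, with PTPRC at or near 0. Nearly all of this was CD14, at 2.37 to 5.065 CPM in T24 and 0.197 to 0.895 CPM in UMUC3, so it was higher in T24. The fibroblast marker COL1A1 stood at 2.64 to 5.08 CPM in T24 and 4.94 to 9.66 CPM in UMUC3. The endothelial marker CDH5 stood at 64.5 to 75.5 CPM in T24 and at 0 in UMUC3, so it moved with the line, and its part in the line results was not tested. The other endothelial markers were low in both lines, PECAM1 at 0.214 to 1.02 CPM and VWF at 0 to 0.505 CPM, and did not follow CDH5. These are bulk samples, in which fewer cells expressing a gene and less RNA per cell cannot be told apart. The linear transcripts share exons with the circle, so the counts do not check the knockdown of circPTK2.

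The 2 kinases had opposite patterns across the lines. PTK2 was counted in every library, at 45.9 CPM (counts relative to the total of the library, adjusted by TMM factors) in the T24 control, 67.2 CPM in T24 knockdown 1 and 63 CPM in T24 knockdown 2. In UMUC3 it stood at 124 CPM in the control, 161 CPM in knockdown 1 and 393 CPM in knockdown 2. All 3 UMUC3 libraries lay above all 3 T24 libraries, as they did for 25.1% of the 20721 genes tested. PTK2B stood at 16.7 CPM in the T24 control, 25.2 CPM in knockdown 1 and 24.7 CPM in knockdown 2 of that line. In UMUC3 it fell to 0.824 CPM in the control, 1.57 CPM in knockdown 1 and 0.64 CPM in knockdown 2, which rest on 46, 88 and 39 counts. All 3 T24 libraries lay above all 3 UMUC3 libraries, as for 27.2% of genes.

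Line against line, PTK2 was higher in UMUC3 by a log2 fold change of 1.87 ± 0.37 (SE; 3 libraries per line; edgeR quasi-likelihood test with Benjamini-Hochberg adjustment over all genes, adjusted p = 0.0127). PTK2B was lower in UMUC3, with a log2 fold change of -4.46 ± 0.33 (SE, adjusted p = 0.000376 by the same test). In this comparison 40.2% of all genes passed the threshold of 0.05 (18.9% higher and 21.3% lower in UMUC3), so passing it sets neither kinase apart from many other genes. The PTK2 call is a narrow one: the adjusted p was 0.0517 without T24 knockdown 1 and 0.0528 without T24 knockdown 2, and the log2 fold change was 1.36 without UMUC3 knockdown 2 (adjusted p = 0.00517). PTK2B kept its call whichever library was left out, with log2 fold changes from -4.84 to -4.13.

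**Figure D1:**
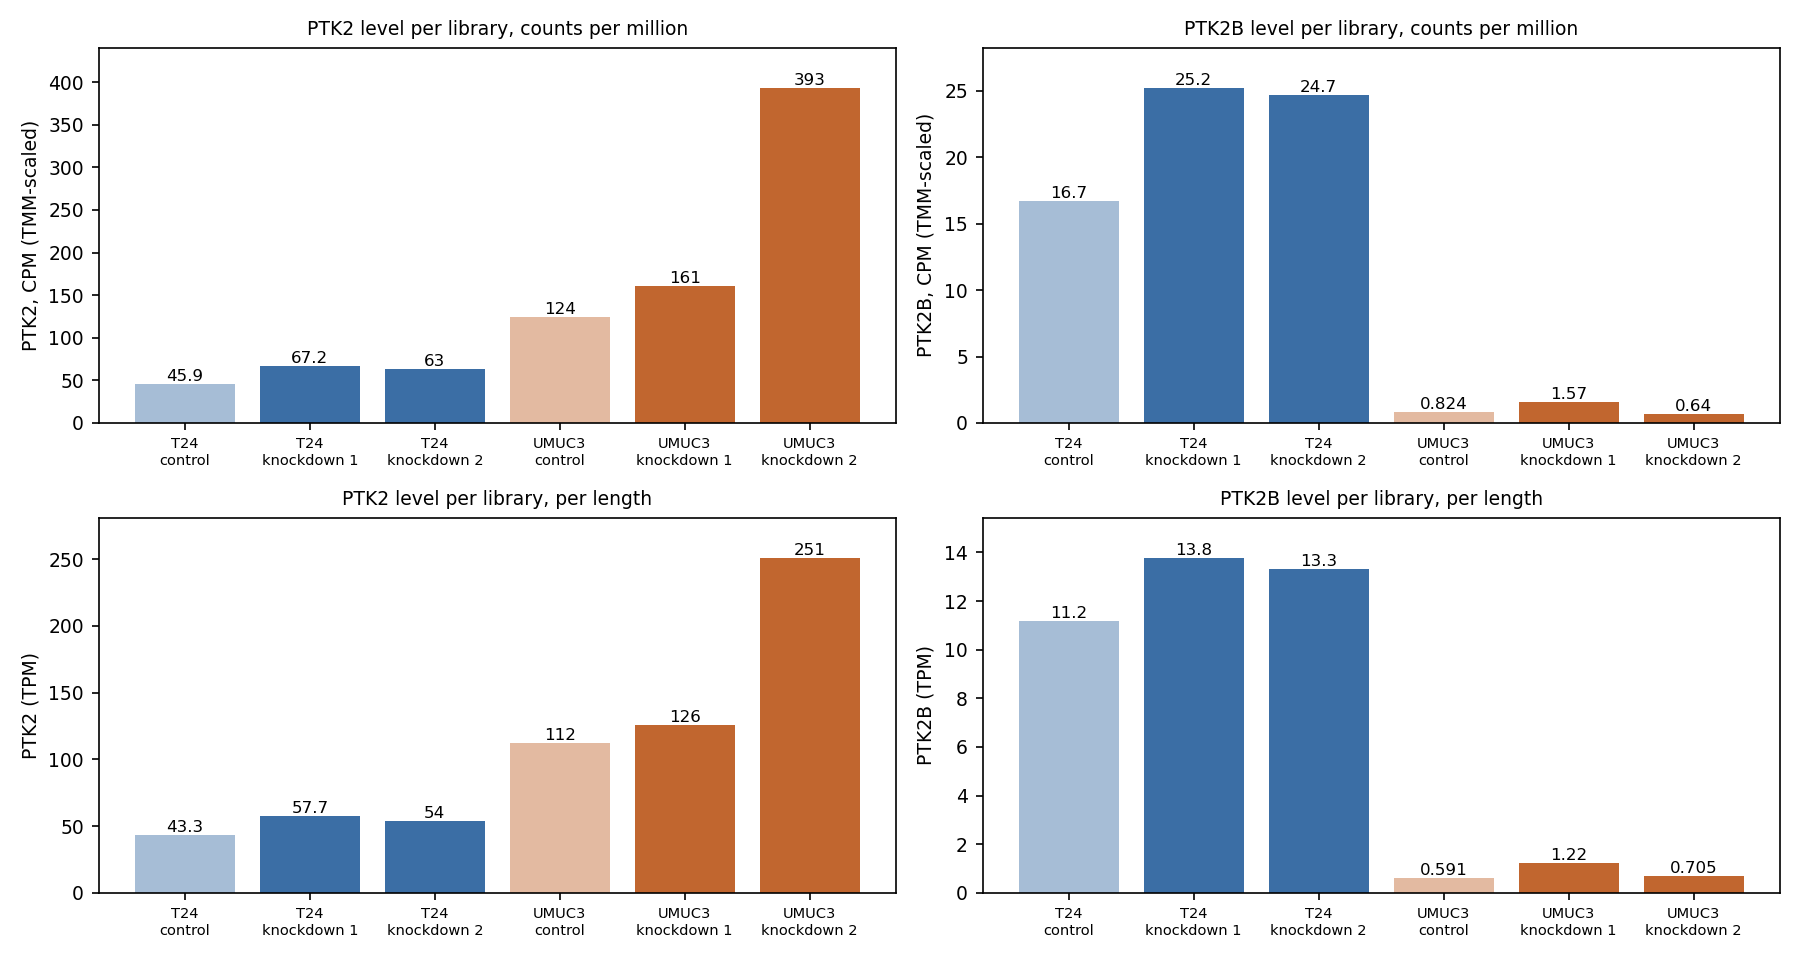
Levels of PTK2 (left) and PTK2B (right) in each library, as TMM-scaled CPM (top) and as TPM, which divides by transcript length (bottom); each bar is 1 library, pale bars are the controls, blue is T24 and orange UMUC3, and the vertical scales differ between panels. PTK2 is higher in all 3 UMUC3 libraries, with knockdown 2 at 393 CPM standing above the rest, and PTK2B is at most 1.57 CPM in UMUC3.

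Levels of the 2 genes can be set side by side only per length. As TPM (counts divided by the exonic length of each transcript and scaled to the same total in every library), PTK2 stood at 43.3, 57.7 and 54 in the T24 control, knockdown 1 and knockdown 2, and PTK2B at 11.2, 13.8 and 13.3. T24 therefore held 3.87 to 4.19 TPM of PTK2 for each TPM of PTK2B. In UMUC3, PTK2 stood at 112, 126 and 251 TPM in the control, knockdown 1 and knockdown 2, and PTK2B at 0.591, 1.22 and 0.705 TPM. The ratio of PTK2 to PTK2B was 190, 103 and 356 in these libraries. In order of level per length, PTK2 in UMUC3 came first, then PTK2 in T24, PTK2B in T24 and PTK2B in UMUC3, and no library of one overlapped the next. In TPM all UMUC3 libraries lay above all T24 libraries for 22.7% of genes and below them for 28.8%. Among tested genes, 80.4 to 84.8% had a lower TPM than PTK2 in T24 and 93 to 97.2% in UMUC3. For PTK2B these shares were 57.7 to 61.7% in T24 and 23.8 to 32.6% in UMUC3.

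After knockdown of circPTK2 the summed PTK2 count was higher than in the control of the line in all 4 knockdown libraries, as it was for 13.3% of genes (12.3% in TPM), and no test passed. The ratio to the control was 1.47 and 1.37 in T24 knockdown 1 and 2. In UMUC3 it was 1.3 in knockdown 1 and 3.18 in knockdown 2, so the knockdown libraries of that line differed more from each other than knockdown 1 did from the control. Fitted over both lines, 4 libraries with knockdown and 2 without, PTK2 had a log2 fold change of 0.83 ± 0.39 (SE, edgeR adjusted p = 0.497). In this comparison 0.0145% of genes passed, 0.135% in T24 alone and 0.647% in UMUC3 alone. PTK2 had a log2 fold change of 0.51 ± 0.59 in T24 (edgeR adjusted p = 0.777) and of 1.16 ± 0.60 in UMUC3 (edgeR adjusted p = 0.44). Without UMUC3 knockdown 2 the UMUC3 value was 0.38 (edgeR adjusted p = 0.369). The effect in UMUC3 minus that in T24 was 0.66 ± 0.82 (edgeR adjusted p = 0.804), against 0.0579% of genes passing, and without UMUC3 knockdown 2 it was -0.13.

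PTK2B did not pass in any knockdown comparison either. Its CPM ratio to the control was 1.51 and 1.48 in T24 knockdown 1 and 2, and 1.9 and 0.778 in UMUC3 knockdown 1 and 2. The last of these lies below 1 in CPM and above 1 per length (1.19 in TPM), on 39 counts. The log2 fold change was 0.58 ± 0.37 in T24 (edgeR adjusted p = 0.591), 0.41 ± 0.66 in UMUC3 (edgeR adjusted p = 0.815) and 0.53 ± 0.33 in both lines together (edgeR adjusted p = 0.586). Without UMUC3 knockdown 1 the UMUC3 value was -0.36, so its direction rests on 1 library. The T24 libraries held the knockdown values close together (25 ± 0.37 CPM, SD, n = 2) above a single control. DESeq2 called neither kinase in these comparisons, in which it called 4.73% of genes over both lines, 4.73% in T24, 8.28% in UMUC3 and 5.41% for the difference.

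Behind the sums, the reads of PTK2 sat on few of its annotated transcripts. Of the 49, 30 to 33 had counts in a T24 library and 37 to 44 in a UMUC3 library, and 22 had counts in all 6. The 12 transcripts with a mean of at least 1 CPM are described by name, and the other 37 together held 3.51 to 9.59% of the gene's counts in a library, none with a mean above 0.73 CPM. Shares of a gene's counts have exact binomial (Clopper-Pearson) 95% intervals, which cover counting error only and not the assignment of reads to overlapping transcripts.

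PTK2-206 (ENST00000517712), an annotated coding transcript of 3 exons and 3351 bases at the 3′ end of the gene with 345 coding bases, took the largest share in 5 of the 6 libraries. It covers 3.44% of the gene's span, and its reading frame is too short to hold the kinase domain. It held 49.6% of PTK2 counts in the T24 control (interval 47.7 to 51.5%), 58.1% in T24 knockdown 1 and 55.4% in T24 knockdown 2. In UMUC3 it held 56.8% in the control (interval 55.7 to 58%), 60.7% in knockdown 1 and 3.05% in knockdown 2 (interval 2.84 to 3.28%). Its level was 22.8, 39 and 34.9 CPM across T24 and 70.4, 97.8 and 12 CPM across UMUC3, in the same order. UMUC3 knockdown 2, the library with the highest PTK2 sum, thus had the lowest value of this transcript.

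In that library the reads lay on a pair of other transcripts. PTK2-218 (ENST00000519993), 33 exons and 4388 bases annotated as a target of nonsense-mediated decay with 198 coding bases, held 79, 24 and 24 counts in the T24 control, knockdown 1 and knockdown 2. It held 262 and 102 counts in the UMUC3 control and knockdown 1, and 11700 in UMUC3 knockdown 2, which is 48.9% of the gene's counts there (interval 48.2 to 49.5%). PTK2-246 (ENST00000523539), 22 exons and 3236 bases with an unannotated coding start, had 4354 counts in UMUC3 knockdown 2 (71.5 CPM) and 0 in each of the other 5 libraries, so it was not tested, since a transcript needed 10 counts in at least 2 libraries. That is at least 1331-fold higher than in the UMUC3 control, taking 3 counts as the floor of that library. Such a pattern, at least 1000 counts in 1 library and 0 in the rest, was met by 38 transcripts in UMUC3 knockdown 2 and by 24 to 39 in each of the other libraries (0.0312% of transcripts in UMUC3 knockdown 2, 0.0238% in UMUC3 knockdown 1, 0.0197% for UMUC3 control cells; T24 gave 0.0221% in its control, 0.032% in knockdown 1 and 0.0303% in knockdown 2), so it was not limited to PTK2 or to this library.

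All 3236 bases of PTK2-246 lie within PTK2-218, and PTK2-218 shares 94.3% of its bases with the coding transcript PTK2-202 and 94.1% with PTK2-201. Short reads in the shared exons can therefore be placed on any of these. PTK2-206 shares 45.4% of its bases with PTK2-218. Left out of the sum, in a description chosen after the values were seen, PTK2-218 and PTK2-246 leave 119 CPM of PTK2 in the UMUC3 control, 159 CPM in knockdown 1 and 130 CPM in knockdown 2. UMUC3 knockdown 2 then stood 1.09 times as high as its control instead of 3.18 times. The pair was picked for its high counts in that library, so a lower ratio there followed from the choice. What is left may not be the level of the other transcripts, since reads in shared exons could be placed on either. In T24 the same sum was 44.5, 66.8 and 62.6 CPM, with ratios of 1.5 and 1.41. The 10 transcripts of 20 or more exons summed to 34.1, 47.1 and 360.5 CPM in the UMUC3 control, knockdown 1 and knockdown 2, and to 17, 20.7 and 21.4 CPM in T24. The 39 shorter ones summed to 89.7, 114 and 32.8 CPM in UMUC3. The low value in knockdown 2 is that of PTK2-206, since the other 38 shorter transcripts summed to 19.3, 16.3 and 20.8 CPM in these libraries.

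**Figure D2:**
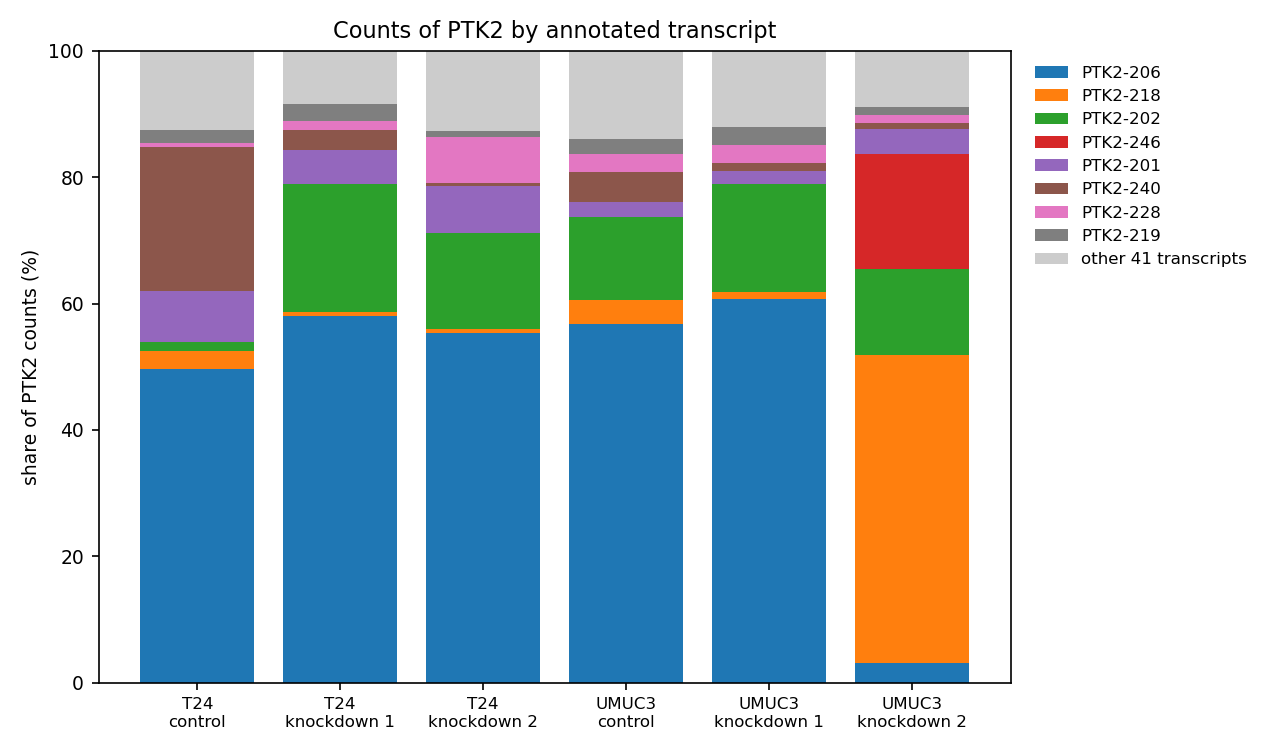
Share of PTK2 counts on each of its 8 most abundant transcripts and on the other 41 together, in percent of the gene's counts, 1 column per library. PTK2-206 holds 49.6 to 60.7% in 5 libraries and 3.05% in UMUC3 knockdown 2, where PTK2-218 and PTK2-246 hold 48.9 and 18.2%.

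By annotated class, complete coding transcripts held 83.5 to 90.2% of PTK2 counts in 5 libraries and 25.8% in UMUC3 knockdown 2. The 4 transcripts annotated for nonsense-mediated decay held 1.3 to 5.72% in 5 libraries and 51% in UMUC3 knockdown 2. Retained introns and processed transcripts, neither of which codes for protein, held at most 2.99% each in any library. The shift in shares between a pair of libraries is the percent of a gene that would have to move to other transcripts to make their shares equal. For PTK2 it was 69.8% between the UMUC3 control and knockdown 2, more than in 94.2% of 10016 genes compared. Between the control and knockdown 1 it was 13.3%. The median over genes was 11.9% and 12.1% for these pairs. In T24 the shift of PTK2 was 30.9 and 33.3% between the control and knockdown 1 and 2, against medians of 11 and 11.1%. It was larger than in 76.5 and 77.7% of genes. Between knockdown 1 and knockdown 2 it was 17.1% in T24 and 70.1% in UMUC3.

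The long coding transcripts varied in level as well. PTK2-202 (ENST00000395218; 31 exons, 3018 coding bases) was the most abundant transcript with a full-length reading frame over the 6 libraries. It stood at 0.673, 13.6 and 9.59 CPM in the T24 control, knockdown 1 and knockdown 2, and at 16.3, 27.5 and 53.5 CPM in UMUC3. It was above its control in all 4 knockdown libraries, as were 9.62% of the 76126 transcripts tested. Its log2 fold change was 2.43 ± 0.83 over both lines (SE, edgeR adjusted p = 0.84), in T24 4.10 ± 0.72 (edgeR adjusted p = 0.49) and in UMUC3 1.32 ± 0.60 (edgeR adjusted p = 0.719), so it did not pass. DESeq2, the other tool run, called it in T24 (adjusted p = 0.000852).

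PTK2-240 (ENST00000522684; 32 exons, 3156 coding bases) went the other way in T24. It had 621 counts in the T24 control, 127 in knockdown 1 and 17 in knockdown 2, a share of 22.8% falling to 3.18% and 0.454% of the gene. In UMUC3 it had 325, 105 and 222 counts. Both T24 knockdown libraries and both UMUC3 knockdown libraries lay below their controls in CPM, as for 12.2% of transcripts, and over both lines PTK2-240 had a log2 fold change of -2.20 ± 0.95 (SE, edgeR adjusted p = 0.844). Among the long coding transcripts PTK2-240 thus had the most counts in the T24 control, and PTK2-202 had the most in both T24 knockdown libraries. PTK2-202 shares 98.2% of its bases with PTK2-240, so short reads can be placed on either, and their assignment was not tested. The 10 transcripts of 20 or more exons together stood at 17, 20.7 and 21.4 CPM in the T24 control, knockdown 1 and knockdown 2.

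PTK2-207 (ENST00000517887; 31 exons, 3288 coding bases), which starts within the gene, had 0 counts in the 3 T24 libraries and in the UMUC3 control, and 356 and 541 counts in UMUC3 knockdown 1 and 2. The level in knockdown 1 was at least 118-fold and in knockdown 2 at least 165-fold that of the UMUC3 control at a floor of 3 counts. The edgeR adjusted p was 0.435 in UMUC3, on a fitted fold that depends on the prior count. How many of all transcripts had such a pattern was not counted. PTK2-207 shares 91.3% of its bases with PTK2-228 and with PTK2-240, so short reads can be placed on any of them, and their assignment was not tested. PTK2-201 (33 exons, 3195 coding bases) stood at 3.65, 3.65 and 4.66 CPM in T24 and at 2.88, 3.49 and 15.6 CPM in UMUC3, where knockdown 2 was the outlying library. PTK2-228 (32 exons, 3156 coding bases) stood at 0.337, 0.958 and 4.58 CPM in T24 and at 3.47, 4.56 and 5.12 CPM in UMUC3. Neither transcript passed in a knockdown comparison, and their lowest edgeR adjusted p there was 0.758.

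The remaining 4 named transcripts were minor ones. PTK2-219 and PTK2-254, short coding models with an open 3′ end, stood at 0.606 to 1.82 CPM and 0.0336 to 1.43 CPM in T24, and at 2.99 to 4.55 CPM and 1.4 to 3.14 CPM in UMUC3. PTK2-255, annotated for nonsense-mediated decay, stood at 0 to 1.92 CPM in T24 and 0.967 to 7.74 CPM in UMUC3, highest in knockdown 2. PTK2-217, a retained intron, stood at 0.219 to 0.42 CPM in T24 and 1.37 to 3.06 CPM in UMUC3, with no overlap between the lines. The same held for PTK2-202, PTK2-218 and PTK2-219. With PTK2-217 these are 4 of the 12 named PTK2 transcripts, while 16.5% of all transcripts tested had each UMUC3 library above each T24 library. The 12 were named by a mean over both lines, which a transcript can reach through UMUC3 alone. PTK2-217 did so, with a mean of 0.308 CPM in T24 and 2.05 CPM in UMUC3. The 4 of 12 therefore cannot be set against that share. PTK2B-201, described below, did not overlap in the other direction, as for 15.3% of all transcripts tested.

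**Figure D3:**
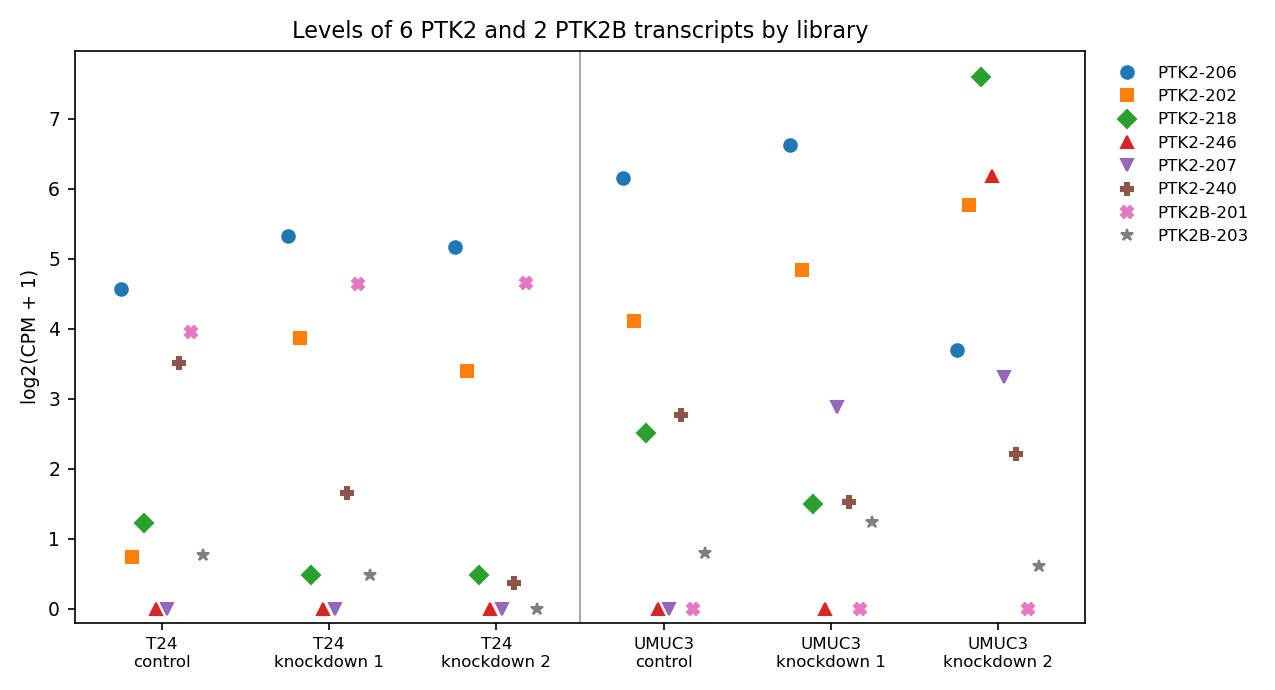
Levels of 6 PTK2 and 2 PTK2B transcripts in each library, as log2 of CPM plus 1 on the vertical axis; each symbol is 1 transcript in 1 library, symbols are spread sideways only for legibility, and the grey line parts T24 from UMUC3. PTK2-218 and PTK2-246 stand highest in UMUC3 knockdown 2, and PTK2B-201 is at 0 in all 3 UMUC3 libraries.

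At the level of single transcripts, edgeR called none of the 31 PTK2 and 4 PTK2B transcripts tested in any knockdown comparison. At an unadjusted p under 0.05 there were 3 of PTK2 in both lines together, 2 in T24, 4 in UMUC3 and 2 in the difference between the lines, and 0 of PTK2B, while 5.8%, 7.24%, 8.01% and 7.96% of all transcripts had such a p. Over all transcripts, 0.0118% passed in both lines together, 0.0% in T24, 0.00394% in UMUC3 and 0.0% in the difference. DESeq2 called PTK2-202 in T24, as above, and PTK2-225, a short coding model of 4 exons, in both lines together (log2 fold change -2.48, adjusted p = 0.0392). These are 1 of 31 PTK2 transcripts each, beside 3.21% of all transcripts called by DESeq2 in T24 and 2.35% over both lines. It called 0 member transcripts in UMUC3 and 0 for the difference, where it called 3.69 and 3.52% of all. PTK2-225 had 7, 1 and 1 counts in the T24 control, knockdown 1 and knockdown 2 and 75, 17 and 13 counts in UMUC3. The test of transcript use, which asks whether shares within a gene differ apart from its level, gave an adjusted p of 0.898 for PTK2 and 1 for PTK2B (edgeR F test, both lines together; 0.803 and 1 with its Simes form), with 1.17% of genes passing.

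Between the lines, edgeR called 2 of the 31 PTK2 transcripts as higher in UMUC3 and 1 of the 4 PTK2B transcripts as lower, with 2.93% of all transcripts passing (1.2% higher and 1.73% lower). The PTK2 ones were PTK2-225 (3.61 ± 0.50, log2 fold change ± SE, edgeR adjusted p = 0.0195) and PTK2-235, with 1, 1 and 0 counts in T24 and 40, 38 and 57 counts in UMUC3 (5.87 ± 0.85, edgeR adjusted p = 0.0298). Both are short coding models with a mean under 1 CPM, and they were named after their values were seen. PTK2-206, the main transcript, had a log2 fold change of 0.92 ± 0.79 (edgeR adjusted p = 0.553), and PTK2-202 one of 2.64 ± 0.74 (edgeR adjusted p = 0.123; called by DESeq2, adjusted p = 0.0107). In all, DESeq2 called 9 PTK2 transcripts, each higher in UMUC3, and 3 of PTK2B, each lower, beside 22.0% of all transcripts.

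PTK2B differed between the lines in level and in which transcript its counts were assigned to. PTK2B-201 (ENST00000346049; 31 exons, 4147 bases, 3027 coding bases) had 866, 1419 and 1431 counts in the T24 control, knockdown 1 and knockdown 2, or 87.2, 94.5 and 97.4% of the gene. It had 0 counts in all 3 UMUC3 libraries. Against a floor of 3 counts per library its level was at least 271-fold higher in the T24 control than in the UMUC3 control, and at least 446-fold and 488-fold higher for knockdown 1 and 2. The edgeR adjusted p was 0.0344, and leaving out any 1 library gave 0.0655 to 0.179. PTK2B-203 (ENST00000397501), which has the same 3027 coding bases in number and holds 98% of the bases of PTK2B-201, held 82.1 to 89.1% of the counts in UMUC3; it lies under a mean of 1 CPM and was named after its values were seen. Its counts were 42, 24 and 0 in T24 and 41, 76 and 32 in UMUC3, with a log2 fold change of 1.44 ± 1.19 between the lines (edgeR adjusted p = 0.54). Short reads in the bases that PTK2B-201 and PTK2B-203 share can be placed on either, and their assignment was not tested. For the whole gene, the CPM of T24 was 20.3, 16.1 and 38.6 times that of UMUC3 in the controls, knockdown 1 and knockdown 2.

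Compared between the lines were the controls, the libraries called knockdown 1 and those called knockdown 2. In these comparisons the shift in transcript shares of PTK2B was 94 to 99.7%, more than in 98.5 to 99.6% of genes. The test of transcript use between the lines gave an adjusted p of 0.0086 for PTK2B (edgeR F test; 0.0366 with its Simes form) and of 0.114 for PTK2 (0.0758 with Simes), where 8.07% of genes passed. For PTK2B the F test gave 0.0532 without the T24 control, 0.0637 without T24 knockdown 1 and 0.0541 without the UMUC3 control. The UMUC3 side of this comparison rests on 39 to 88 counts per library. The other 8 PTK2B transcripts, 6 of them retained introns, had at most 36 counts in any library.

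The partners of the kinases were read from a list of 45 genes, of which 43 were tested. Between the lines 4 were higher and 13 lower in UMUC3, with a median log2 fold change of -0.38 against -0.02 over all genes. The share called was 17 of 43, beside 40.2% of all genes. Among kinases and adaptors, 1 rose and 7 fell of 17. SRC, the kinase that joins focal adhesion kinase, stood at 133, 163 and 153 CPM in T24 and at 22.3, 21.4 and 19.5 CPM in UMUC3 (-2.83 ± 0.14, log2 fold change ± SE, edgeR adjusted p = 0.000113). LYN, another SRC family member, was also lower (-4.29 ± 0.21), while YES1 was higher (0.43 ± 0.12, edgeR adjusted p = 0.0308). The adaptors BCAR1 (-1.87 ± 0.20, edgeR adjusted p = 0.00142) and NEDD9 (-4.61 ± 0.44), which both are substrates of the kinase pair, and GRB7 (-6.67 ± 0.49; 0 to 0.0716 CPM in UMUC3) were lower in UMUC3.

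Among 9 adhesion proteins 1 rose and 3 fell between the lines. ITGB1, the integrin beta 1 chain, stood at 1332 to 1601 CPM in T24 and 1876 to 2707 CPM in UMUC3 (0.64 ± 0.08, edgeR adjusted p = 0.0026). Paxillin itself, PXN, stood at 30.7, 77.2 and 317 CPM in T24 and at 57.2, 81.8 and 53.5 CPM in UMUC3, with T24 knockdown 2 far above the rest (-0.78 ± 0.77, edgeR adjusted p = 0.461). ASAP1, an Arf regulator, was higher in UMUC3 (1.25 ± 0.14, edgeR adjusted p = 0.00162). RB1CC1, which encodes FIP200, an inhibitor of focal adhesion kinase, stood at 80.7 to 99.5 CPM in T24 and 107 to 126 CPM in UMUC3 (0.40 ± 0.14, edgeR adjusted p = 0.0656). PITPNM2, from a family that binds PYK2, was higher in UMUC3 (1.80 ± 0.51, edgeR adjusted p = 0.0403).

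**Figure D4:**
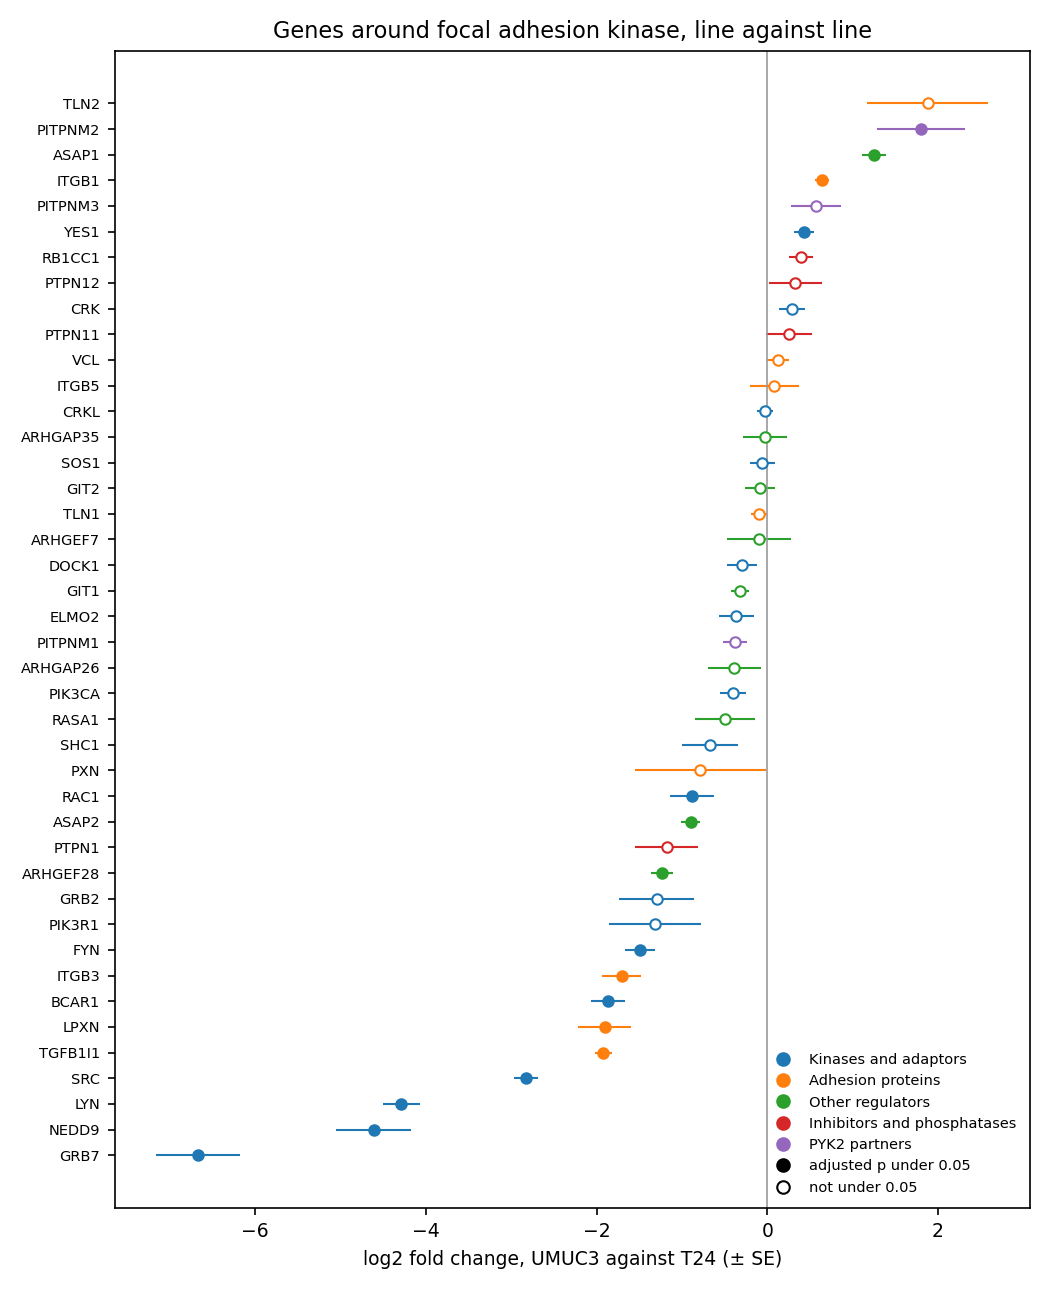
Log2 fold change of UMUC3 against T24 with its standard error (horizontal axis) for 42 of the 43 tested genes around focal adhesion kinase, sorted by size; colours give the role and filled points had an adjusted p under 0.05. GRB7, NEDD9, LYN and SRC lie lowest, and PITPNM2, ASAP1, ITGB1 and YES1 are the filled points above 0.

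After knockdown, 0 of the 43 passed in edgeR with both lines together and 0 in T24, with 5 and 9 at an unadjusted p under 0.05 (11.6 and 12.5% of all genes), and DESeq2 called 1 and 5, beside the 4.73% of all genes it called in each. In UMUC3 10 had such a p, against 16.8% of all genes, and DESeq2 called 5, beside 8.28%. With edgeR 1 passed in UMUC3, PTPN11, which encodes the phosphatase SHP2. It stood at 214 CPM in the control and 477 and 507 CPM in knockdown 1 and 2 (1.20 ± 0.09, edgeR adjusted p = 0.0431), and at 308 to 322 CPM throughout T24. No gene at all passed in UMUC3 when any 1 of the 4 knockdown libraries was left out, so the PTPN11 call ends there too. The next smallest p in UMUC3 belonged to DOCK1 (0.89 ± 0.10, edgeR adjusted p = 0.0653), RAC1 (0.64 ± 0.08, 0.0716) and ASAP1 (-0.70 ± 0.09, 0.0752). The smallest p with both lines together belonged to ITGB1 (0.34 ± 0.09, edgeR adjusted p = 0.284), FYN (-0.66 ± 0.18, 0.296), ITGB3 (0.74 ± 0.24, 0.36) and ASAP1 (-0.43 ± 0.14, 0.366). In T24 they belonged to PITPNM2 (2.64 ± 0.19, edgeR adjusted p = 0.0569), LPXN (1.37 ± 0.17, 0.108), RAC1 (-0.56 ± 0.08, 0.119) and CRK (0.60 ± 0.09, 0.128). SRC (0.06 ± 0.14), BCAR1 (0.02 ± 0.21), PXN (1.29 ± 0.85) and RB1CC1 (0.05 ± 0.15) had edgeR adjusted p of 0.612 or more with both lines together. For the difference between the lines 0 passed and 12 had an unadjusted p under 0.05 (13.5% of all genes), and DESeq2 called 4, beside 5.41%. The smallest p there belonged to RAC1 (1.20 ± 0.11, edgeR adjusted p = 0.0975), PTPN11 (1.26 ± 0.12, 0.0975), PITPNM2 (-2.38 ± 0.24, 0.111) and LPXN (-1.37 ± 0.23, 0.17). The median log2 fold change of the list was 0.10 with both lines together, 0.19 in T24, -0.004 in UMUC3 and -0.155 for the difference, beside 0.005, 0, 0 and 0.016 over all genes.

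Genes next to the kinases did not share one direction between the lines. Within 500 kb of PTK2, with a mean of at least 5 CPM, CHRAC1 (1.21 ± 0.20, log2 fold change ± SE), AGO2 (0.89 ± 0.24) and SLC45A4 (1.77 ± 0.19) were higher in UMUC3 by edgeR, like PTK2. DENND3 (0.21 ± 0.15, edgeR adjusted p = 0.312) and TRAPPC9 (-1.61 ± 0.51, edgeR adjusted p = 0.053) did not pass. Around PTK2B, CLU (2.504 ± 0.15), ESCO2 (0.72 ± 0.20) and PBK (2.05 ± 0.40) were higher in UMUC3, against the direction of PTK2B, and SCARA3 was lower (-1.06 ± 0.14). TRIM35, which begins 163 bases from PTK2B on the other strand, stood at 24.5 to 32.1 CPM in T24 and 17.8 to 26.2 CPM in UMUC3 (-0.42 ± 0.15, edgeR adjusted p = 0.0685), and CCDC25 had 0.07 ± 0.32 (edgeR adjusted p = 0.89). None of these neighbours passed with knockdown in both lines together, where the lowest edgeR adjusted p was 0.225, or in T24 alone, where it was 0.0808. In UMUC3 alone 1 passed: AGO2, which encodes an Argonaute protein of small RNA silencing, fell from 667 CPM in the control to 242 and 269 CPM in knockdown 1 and 2 (-1.39 ± 0.10, edgeR adjusted p = 0.0432), beside 0.647% of genes. This call also ends when any 1 of the 4 knockdown libraries is left out. The only tested gene overlapping PTK2 was AC105235.1, at 0.135 to 0.627 CPM.

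The genes whose levels followed PTK2 most closely over the 6 libraries, by the root mean square difference of centred log2 CPM among 10784 genes, were AHI1 (0.175), LRP11 (0.30) and CIP2A (0.32). LRP11 stood at 14.9, 19 and 20.9 CPM in T24 and at 57, 78.3 and 118 CPM in UMUC3. Its shift in transcript shares within a line was at most 4.1%. AHI1, by contrast, had a shift of up to 97.5%. Closest to PTK2B were COL6A2 (0.19), CLSTN3 (0.25) and RAC3 (0.271). COL6A2 stood at 134, 177 and 195 CPM in T24 and at 6.88, 16.7 and 5.93 CPM in UMUC3. With 6 libraries in 2 lines, such likeness mostly restates the difference between the lines.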

How the data were processed

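The authors deposited whole-number read counts per transcript for 6 libraries, without normalisation. The submitters' processing notes name StringTie 1.3.3b, HISAT2 2.1.0 and FastQC 0.11.5, with hg38 as the build. The role of each tool, the strand setting and any poly(A) selection are not given in the sources used here, so reads of overlapping genes cannot be told apart, and similar transcripts can trade reads. Of 136953 transcripts, 15038 name no gene and enter neither library sizes nor tests. The rest were summed by gene. GENCODE release 29 gave lengths and classes for 121869 transcripts, 121324 of them at the same coordinates.

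Features with at least 10 counts in 2 libraries and 30 in total (20721 genes, 76126 transcripts) were tested with edgeR 4.0.16 in R 4.3.3, using TMM factors, robust quasi-likelihood fits and Benjamini-Hochberg adjustment over all features at 0.05. The fit over both lines, also used for line against line, had terms for line and knockdown and left 3 residual degrees of freedom. Effects within a line and their difference came from a fit of 4 groups with 2 residual degrees of freedom, where a lone control is taken to vary as the knockdown libraries do. Transcript use was tested with diffSpliceDGE.

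Some choices followed the results. The bias-adjusted quasi-likelihood fit became the main one after edgeR's default (legacy) fit had been run and gave counts of calls other than those of an earlier analysis of these data. Effective library sizes were rounded to whole counts after a fit with a replicate block had failed without rounding, and the main counts of calls did not change. The legacy fit, a transcript length offset and the Simes test were added as alternatives after the data were seen. On simulated data 200 genes or transcripts were changed 4-fold. The gene test recovered 200 in each comparison with 4 to 12 false calls, and the transcript test 198 to 200 with 4 to 15. The simulation gave every feature the same fixed dispersion and changed only features with many counts. Recovery there does not measure power for transcripts that vary as those of PTK2 did. The F test of transcript use called 91 unchanged genes of 11982 in simulated data and the Simes form 22, so both are given where all 6 libraries enter; without single libraries only the F test is given. The other alternatives were DESeq2 1.42.0, its size factors, no filter, library sizes from the whole table, a replicate block, each library left out, the line effect from knockdown libraries alone, and another transcript length.

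The text names both kinases, their transcripts with a mean of at least 1 CPM, up to 4 pathway genes called in each direction (or the 4 smallest p where fewer than 2 passed) with SRC, BCAR1, PXN and RB1CC1, neighbours within 500 kb with a mean of at least 5 CPM, and the 3 genes most like each kinase. The members and lists were chosen with earlier results of these data known. A pathway gene that the rule names is not reported here.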

Additional observations from a re-analysis of the deposited data

How the results depend on the processing

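Both kinases kept the direction of their line difference under all alternatives run, and PTK2B kept its call. PTK2 lost its call without T24 knockdown 1 (1.83) or T24 knockdown 2 (1.78), with a range of 1.36 to 2.12 over libraries left out. No alternative called PTK2 or PTK2B for knockdown. The number of genes called for knockdown in both lines, T24 and UMUC3 and for the difference was 3, 28, 134 and 12. It became 8, 43, 228 and 35 without a filter, and 981, 980, 1715 and 1120 with DESeq2. With the transcript length offset it was 5, 18, 37 and 5, and the legacy fit gave 2 in T24, 13 in UMUC3 and 5 for the difference, which DESeq2 size factors also set at 5. With 1 library left out it ranged from 0 to 132, 0 to 25 and 0 to 132, and was 0 for the difference each time. For both lines the upper end came without the T24 control, when that fit holds only the UMUC3 effect. The difference between lines in the knockdown effect on PTK2 was -0.13 to 1.16 with 1 library left out, and that on PTK2B -0.94 to 0.35, or 0.43 with the length offset. The UMUC3 knockdown value of PTK2B was -0.36 to 0.93. The cause was not tested.

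Transcripts called were 9 for both lines, 0 in T24, 3 in UMUC3, 0 for the difference and 2231 between the lines. DESeq2 called 1786, 2443, 2807, 2676 and 16712. Without a filter there were 10 in T24, 6 in UMUC3, 2 for the difference and 1137 between the lines. The legacy fit called 0 for both lines, 0 in UMUC3 and 522 between the lines, where PTK2B-201 had an adjusted p of 0.0585. With 1 library left out the calls were 0 to 4 for both lines, 0 to 3 in UMUC3 and 17 to 383 between the lines. Transcript use gave 223 genes without a filter for both lines and 145 to 271 with 1 library left out, 635 between the lines with Simes, and for PTK2B an adjusted p of 0.0266 to 0.0637.

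Leaving out 1 library turned the direction of several uncalled transcripts. For both lines the ranges were -0.78 to 0.70 for PTK2-206, -0.99 to 0.69 for PTK2-217, -1.72 to 4.37 for PTK2-218, -0.97 to 0.80 for PTK2-254 and -0.09 to 2.25 for PTK2-255. Without the lone control of a line, the fit for both lines holds only the effect in the other line. Such fits gave both ends for PTK2-217 and PTK2-218 and the upper ends for PTK2-206, PTK2-254 and PTK2-255. In T24 they were -0.002 to 0.35 for PTK2-201, -0.58 to 1.00 for PTK2-219, -4.64 to 0.68 for PTK2-254 and -8.07 to 1.74 for PTK2-255. In UMUC3 they were -2.55 to 0.47 for PTK2-206 and -1.37 to 5.36 for PTK2-218. For the difference they were -0.40 to 1.18 for PTK2-219 and -0.17 to 10.31 for PTK2-255. Between the lines they were -0.29 to 1.20 for PTK2-201, -0.14 to 1.5 for PTK2-206 and -0.17 to 1.20 for PTK2-240. A transcript at 0 in all libraries compared, or one without an adjusted p in DESeq2, gave no value.

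The titles give reagent numbers 1 and 2 in both lines. Same-numbered libraries had a correlation of deviations of 0.015 by title and -0.015 by column name over 20721 genes. The numberings differ only by a swap in T24, which turns the sign, so the second value is fixed by the first. A correlation over all genes cannot show whether same-numbered libraries shared an effect on a few of them. With the replicate block the numbers of genes called for knockdown and for the difference were 0 by either numbering, and transcripts called were 0 for both lines, 0 in UMUC3 and 19 between the lines. In the block fit by title PTK2 had a line difference of 1.77 (adjusted p = 0.0165) and PTK2B one of -4.49 (0.00209), PTK2B-201 had an adjusted p of 0.173, PTK2-206 a value of -0.069 for both lines and PTK2-255 one of -0.90 in T24.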
